A study of Rattus norvegicus with 4 samples.

Results

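The genes described here drive and police cell division from late G2 to cytokinesis: the cyclins and Cdk1, the mitotic kinases, the spindle checkpoint, the kinetochore, the condensins and the machinery of anaphase and cytokinesis. A list of 45 such genes was read from rat microarrays of embryonic forebrain, and a gene counted as present where the platform annotation gave at least 1 probe set its symbol and no other. Of the 45, 39 were present, with 55 probe sets, among 14217 genes so named on the array. All 55 probe sets passed the filter on dim signals, so 39 of the 9840 genes tested belong to the list. Cdc25c, Nek2, Ndc80, Ncapg, Tpx2 and Anln had no such probe set and were not analysed here. Where a gene had several probe sets, the brightest on average stands for it.

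The arrays compared telencephalon, the anterior part of the embryonic forebrain, of wild-type Sprague-Dawley rats with that of rats homozygous for the Pax6 mutation rSey2 (rSey2/rSey2) on the same background. Tissue came from stage E11.5 in both genotypes, and the series' design text describes RNA from 13 telencephalons, prepared 2 times per genotype, without saying which preparation went on which array. Each genotype has 2 arrays, numbered 1 and 2 in the labels as biological replicates. Nothing in the labels names litters or days, and whether arrays of a genotype share tissue is not stated. A p-value here therefore reflects only how far arrays of a genotype lie apart, for whatever reason, pooled in part over all tested probe sets. Values are log2 GCRMA signals, on which a difference of 1 is a 2-fold difference.

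Mitosis is started when Cdk1, bound to cyclin B, is switched on by Cdc25 phosphatases, and it ends when the anaphase-promoting complex destroys the cyclins. The spindle checkpoint holds that complex back until every kinetochore is attached to microtubules. In the early telencephalon nearly all cells are neuroepithelial progenitors that divide at the ventricular surface, and the dorsal ones among them carry the transcription factor Pax6. The transcripts of these genes peak in G2 and mitosis. In bulk tissue fewer dividing cells and less RNA per dividing cell cannot be told apart.

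Many of these genes share promoter letters, which are shown first because they are what the list has in common beyond its function. The cell cycle genes homology region (CHR), bound by the MuvB complexes, was searched as TTTGAA or TTTAAA, and the CCAAT box, bound by NF-Y, as CCAAT, each on either strand. The search covered 250 bases before and 50 bases after the RefSeq start site (build GRCr8). RefSeq promoters were matched by symbol for 39 of the 45 genes. Ccna2, Aurkb, Incenp, Ube2c, Tpx2 and Racgap1 were not matched. The 120 bases before the start site are printed 5′ to 3′ on the strand of the gene. They are given for 6 of the 12 genes whose arrays did not overlap between genotypes (below). Among those not printed, Cenpf and Dlgap5 hold CCAAT matches but no CHR-type match in these bases. Birc5 and Bub1b hold a CHR-type match that starts there but no CCAAT match. Nuf2 holds neither in these bases, and Nusap1 holds both. The printed promoters thus hold both motifs more often than those not printed. Capitals mark CHR-type and CCAAT matches, which overlap each other in some promoters of the list, such as that of Mki67.
Top2a: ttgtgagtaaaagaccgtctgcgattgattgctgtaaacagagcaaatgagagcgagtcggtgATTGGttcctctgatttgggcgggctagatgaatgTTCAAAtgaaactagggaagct
Cenpe: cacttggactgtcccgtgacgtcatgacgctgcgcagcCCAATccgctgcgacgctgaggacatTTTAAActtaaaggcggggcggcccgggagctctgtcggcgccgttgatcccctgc
Ccnb1: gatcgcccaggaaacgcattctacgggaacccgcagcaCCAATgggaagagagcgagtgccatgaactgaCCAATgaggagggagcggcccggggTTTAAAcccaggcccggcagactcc
Cdk1: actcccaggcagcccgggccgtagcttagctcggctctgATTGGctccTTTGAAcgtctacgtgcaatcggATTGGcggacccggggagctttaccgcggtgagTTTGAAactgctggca
Aspm: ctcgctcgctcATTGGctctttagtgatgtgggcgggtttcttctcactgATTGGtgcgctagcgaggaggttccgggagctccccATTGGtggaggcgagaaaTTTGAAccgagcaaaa
Spc24: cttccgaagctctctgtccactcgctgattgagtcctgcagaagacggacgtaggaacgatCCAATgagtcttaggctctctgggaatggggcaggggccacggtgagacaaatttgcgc

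These stretches lie at chr10:84473094-84473213 (minus strand) for Top2a, chr2:226310937-226311056 (plus strand) for Cenpe and chr2:33655226-33655345 (minus strand) for Ccnb1. They lie at chr20:19265173-19265292 (plus strand) for Cdk1, chr13:53625464-53625583 (plus strand) for Aspm and chr8:28581300-28581419 (minus strand) for Spc24. In Top2a the CHR-type match begins 22 bases before the start site and the nearest CCAAT match 57 bases before it. Ccnb1 has the same order, with a CHR-type match at 25 and CCAAT matches at 50 and 82 bases before the start. Cenpe has its CHR-type match at 56 and its CCAAT match at 82 bases. Spc24 has CCAAT matches at 59 and 181 bases and no CHR-type match in the window. A CHR-type match was found in 34 of the 39 matched promoters (87.2%), against 28.3% of all 33469 promoters of the table, 26.4% of the 21851 protein-coding ones and 18.2% of the 8268 promoters of genes tested on the array. For CCAAT the counts were 31 of 39 (79.5%), against 37.5% of all promoters and 38.3% of those of tested genes. Both motifs stood together in 27 of 39 (69.2%), against 11.3% of all promoters and 25.8% of those of the other mitosis genes (below). A CHR-type match starting no more than 100 bases before the start site, or after it, was found in 31 of 39 (79.5%), against 13.4% of all promoters. These are matches of letters, not measured binding sites.

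**Figure D1:**
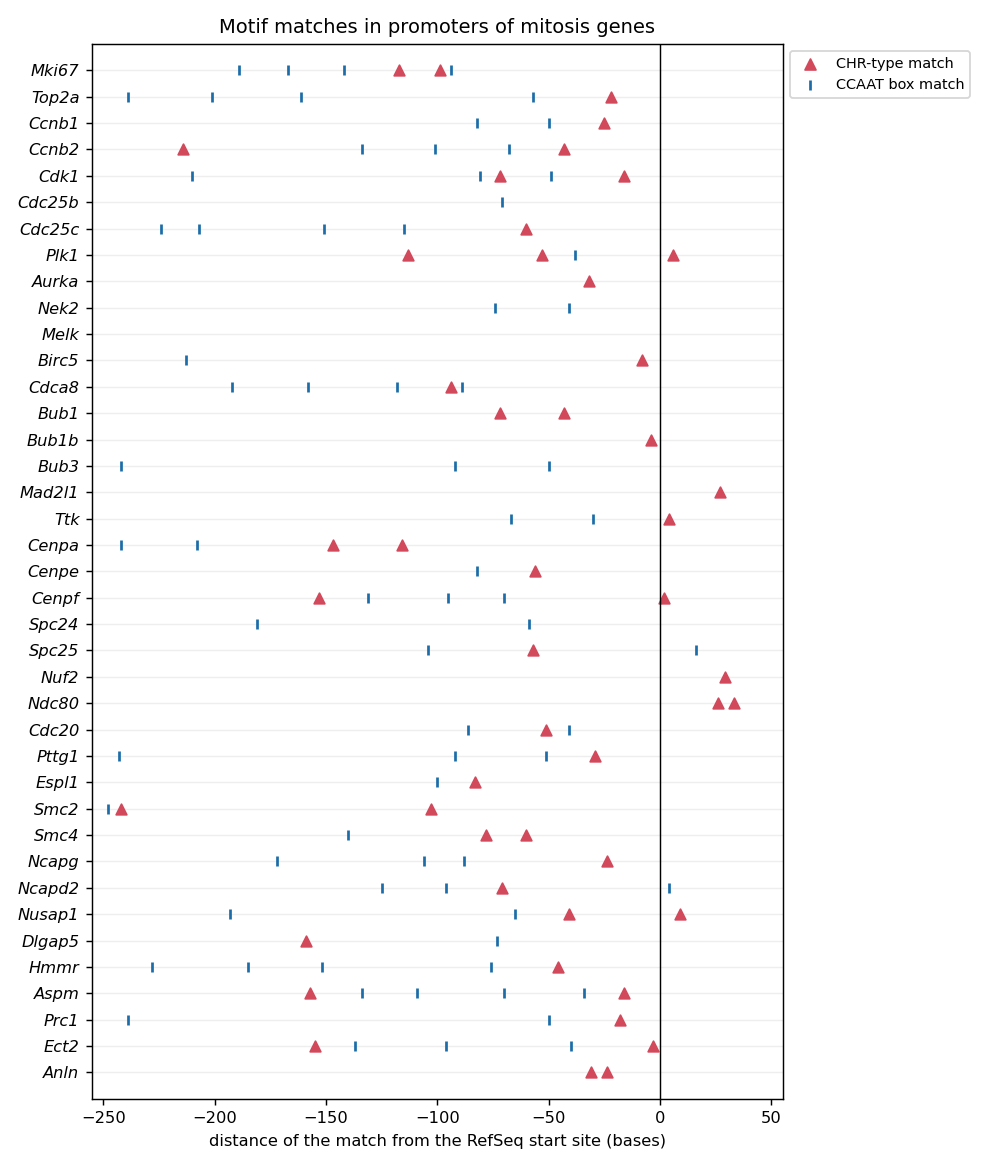
Positions of CHR-type (triangles) and CCAAT (bars) matches in the 39 matched promoters, 1 row per gene, against the distance in bases from the RefSeq start site (vertical line). CHR-type matches gather near the start site, with 31 of 39 promoters holding one no more than 100 bases before it or after it, and CCAAT matches mostly lie further from it.

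The comparison asked whether transcripts of dividing cells differ between wild-type and Pax6 mutant telencephalon. The mitosis genes were well above the level taken as dim (3.21), with means per gene from 7.35 to 13.43, and differed little between genotypes. The median difference over the 39 genes, mutant minus wild type, was -0.049 on the log2 scale, against 0.00 over all 9840 genes tested. Of the 39, 30 had a lower mean in the mutant and 9 a higher one, and 49.4% of all genes tested had a lower mean. No gene of the list passed an adjusted p of 0.05 in limma (0 of 39, adjusted p = 1 for each), and 0 of 9840 genes did (0%). Unadjusted, 2 genes had a p under 0.05, both lower, Top2a and Cenpe. Over all genes 1.81% were lower and 1.78% higher at that level.

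The intervals per gene, which are not adjusted for the number of genes, were narrow for most of the list. Like the p-values, they reflect only how far arrays of a genotype lie apart. In limma each gene's spread is drawn toward that of all tested probe sets. Spc24, with standard deviations of 0.0014 and 0.018 within genotypes, thus had a standard error of 0.068. Over all 9840 genes tested, 48 differed by at least 1 in size and the lowest by -7.26, yet 0 passed an adjusted p of 0.05 in limma. An adjusted p above 0.05 therefore does not show that a gene is unchanged. The 95% limma interval lay within 0.5 on either side of 0 for 25 of the 39 genes and within 1, a 2-fold difference, for 36. The standard error (SE) ran from 0.068 to 0.481, with a median of 0.104. The largest difference in size was 0.44, and 0 of 39 genes reached 0.5, which 3.35% of all genes tested did.

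**Figure D2:**
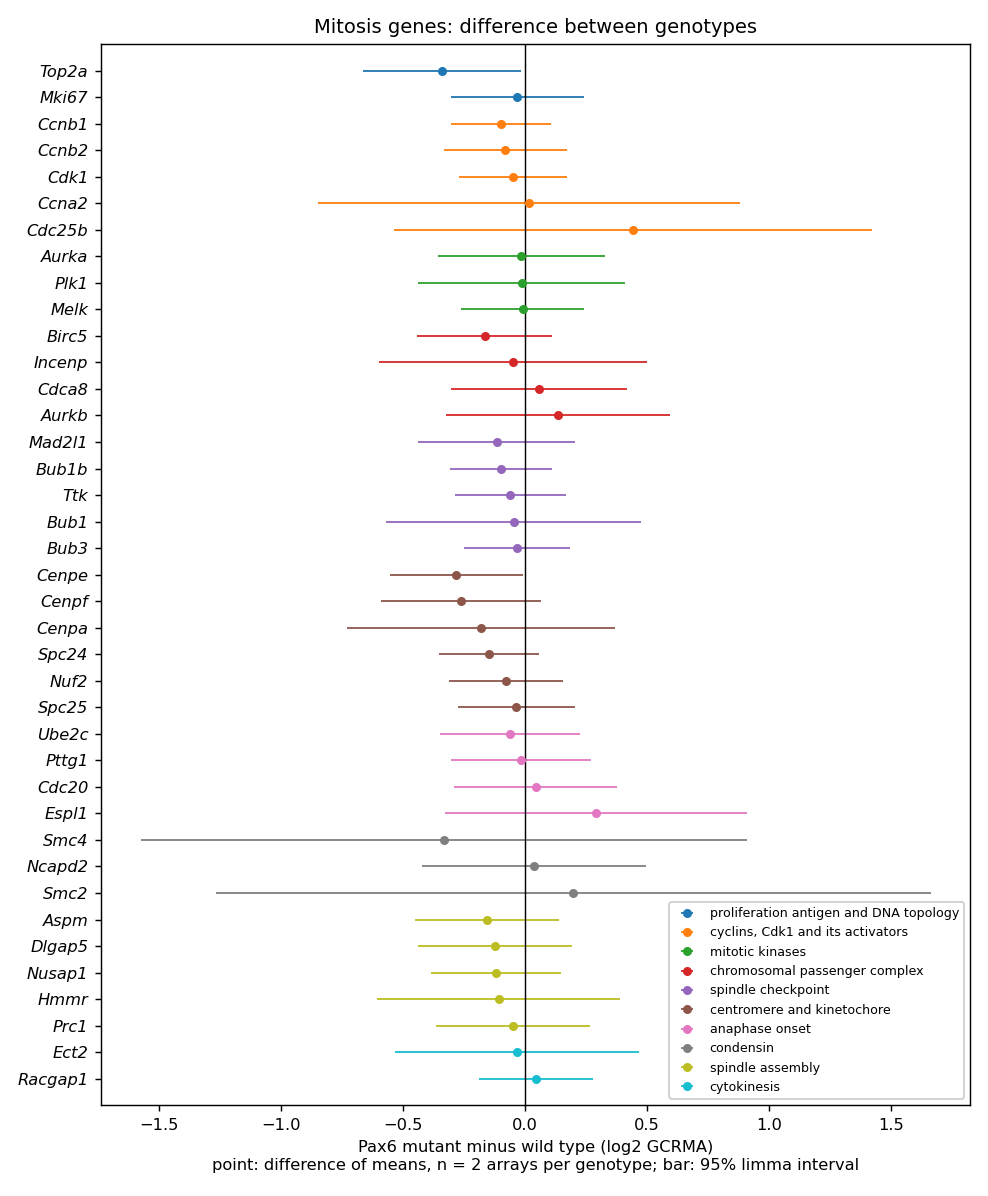
Difference between genotypes (Pax6 mutant minus wild type, log2 GCRMA) of the 39 genes, ordered by role and coloured by it, with the mean difference of 2 against 2 arrays as a point and the 95% limma interval as a bar. The intervals of Top2a and Cenpe stop short of 0 without passing after adjustment, and those of Ccna2, Cdc25b, Smc2 and Smc4 are the widest.

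In 12 of the 39 genes both mutant arrays lay below both wild-type arrays, and in 0 both lay above. Over all genes tested these shares were 12.1% lower and 12.2% higher. The 12 genes were Top2a, Ccnb1, Cdk1, Birc5, Bub1b, Cenpe, Cenpf, Spc24, Nuf2, Nusap1, Dlgap5 and Aspm. When each array was centred on its median, 7 genes lay wholly below (12.9% of all genes tested) and 1, Espl1, wholly above (13.6% of all genes tested). The 7 were Top2a, Cenpe, Cenpf, Birc5, Spc24, Nuf2 and Dlgap5. Leaving out 1 array gave 25 to 28 genes with a lower mean. The 25 came without wild-type replicate 2, where the median difference of all genes was 0.0235. The 28 came without wild-type replicate 1, where that median was -0.0206. The share of all genes with a lower mean is not given for these runs.

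Top2a, the topoisomerase that untangles sister chromatids, had the lowest difference of the 39. Its values were 13.11 and 13.06 in wild type and 12.85 and 12.645 in the mutant, so the mutant arrays were both lower and the genotypes did not overlap. The difference was -0.34 (SE 0.11, n = 2 arrays per genotype; limma unadjusted p = 0.0440, adjusted p = 1), or 1.27-fold lower. Its second probe set gave 12.15 and 11.99 in wild type against 11.97 and 12.07 in the mutant, which overlap, with a difference of -0.05. Averaged over both probe sets, the difference of Top2a was -0.19. The probe sets of Top2a therefore disagree on whether the genotypes separate. Mki67, which encodes the proliferation antigen Ki-67, had values of 12.74 and 12.60 in wild type and 12.61 and 12.67 in the mutant. Those values overlap, with a difference of -0.03 (SE 0.09) and a 95% interval from -0.30 to 0.24. The difference of Mki67 ran from -0.098 to 0.037 when 1 wild-type array was left out (replicate 2 and replicate 1, respectively).

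Among the cyclins, Cdk1 and its activators, 3 of 5 measured genes had a lower and 2 a higher mean. Ccnb1, the main mitotic cyclin B, had values of 13.49 and 13.47 in wild type and 13.38 and 13.38 in the mutant, both mutant values being lower. The difference was -0.10 (SE 0.07; limma adjusted p = 1). A second Ccnb1 probe set had values of 12.98 and 12.94 in wild type and 12.67 and 12.74 in the mutant, and differed by -0.26 (SE 0.07; limma unadjusted p = 0.0351). Both probe sets of Ccnb1 thus put the mutant arrays below the wild-type arrays, by different amounts, and their mean differed by -0.18. Cdk1, the kinase that starts mitosis, had values of 12.99 and 12.96 in wild type and 12.96 and 12.89 in the mutant, so the nearest wild-type and mutant values were almost equal. The difference of Cdk1 was -0.05 (SE 0.07), but -0.016 without mutant replicate 2, -0.080 without mutant replicate 1 and -0.018 after quantile normalization. Ccnb2, the other B-type cyclin, differed by -0.08. Ccna2, cyclin A, differed by 0.02 (SE 0.28), with a spread within genotypes that far exceeds the difference. Cdc25b, a phosphatase that activates Cdk1, had values of 8.60 and 9.18 in wild type and 9.06 and 9.61 in the mutant. Its difference, 0.44 (SE 0.32), was the highest of the 39. The genotypes of Cdc25b overlap, since wild-type replicate 2 lay above mutant replicate 1.

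The mitotic kinases lay close to 0. Plk1, which acts at centrosomes and kinetochores, and Aurka, the kinase of the spindle poles, both differed by -0.01, with SEs of 0.14 and 0.11. Melk, a kinase of dividing progenitors, differed by -0.009 (SE 0.08). The values of all 3 overlapped between genotypes.

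The chromosomal passenger complex corrects faulty attachments of kinetochores and had no shared direction, with 2 of 4 genes lower. Aurkb, its kinase, had values of 11.41 and 11.12 in wild type and 11.49 and 11.31 in the mutant, which overlap. The difference was 0.13 (SE 0.15), and it was -0.012 with replicate 2 of wild type left out and 0.28 with replicate 1 left out instead. Leaving out mutant replicate 1 gave 0.046 and mutant replicate 2 gave 0.22. Birc5, or survivin, which recruits the complex to centromeres, had values of 10.31 and 10.47 in wild type and 10.22 and 10.22 in the mutant. Both mutant values of Birc5 were lower, by -0.16 on average (SE 0.09; limma adjusted p = 1). Leaving out wild-type replicate 2 gave -0.087 for Birc5. The scaffold Incenp differed by -0.05 and Cdca8, or borealin, by 0.06. The other probe sets of Incenp differed by -0.24 and -0.04.

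All 5 spindle checkpoint genes had a lower mean in the mutant, with differences from -0.12 to -0.03. Bub1, a checkpoint kinase, had values of 12.07 and 12.10 in wild type and 12.24 and 11.84 in the mutant. The mutant arrays of Bub1 lay on both sides of the wild-type arrays, with a difference of -0.05 (SE 0.17). It was 0.15 without mutant replicate 2 and -0.25 without mutant replicate 1. Bub1b, the pseudokinase BubR1 of the checkpoint complex, had values of 11.81 and 11.78 in wild type and 11.71 and 11.68 in the mutant. Its genotypes did not overlap, with a difference of -0.10 (SE 0.07). Mad2l1, which inhibits Cdc20, differed by -0.12, the kinase Ttk (Mps1) by -0.06 and Bub3 by -0.03. The second probe set of Bub3 differed by -0.19, that of Ttk by -0.10, and the others of Mad2l1 by -0.06 and -0.18.

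All 6 measured centromere and kinetochore genes also had a lower mean, with a median of -0.16, and in 4 of the 6 the genotypes did not overlap. Cenpe, the kinetochore kinesin that brings chromosomes to the metaphase plate, had values of 9.93 and 9.95 in wild type and 9.59 and 9.74 in the mutant. The difference was -0.28 (SE 0.09; limma unadjusted p = 0.0469, adjusted p = 1), or 1.21-fold lower. Cenpf, a large protein of the outer kinetochore, had values of 12.00 and 11.90 in wild type and 11.59 and 11.79 in the mutant. Both mutant values of Cenpf were lower, with a difference of -0.26 (SE 0.11; limma unadjusted p = 0.0871), or -0.17 without mutant replicate 1. Spc24, a subunit of the Ndc80 complex that holds microtubules, had values of 11.61 and 11.60 in wild type and 11.47 and 11.45 in the mutant. The spread of Spc24 within genotypes was small, and its difference was -0.15 (SE 0.07; limma adjusted p = 1). Its partners Nuf2 and Spc25 differed by -0.08 and -0.03. Cenpa, the histone H3 variant of centromeres, differed by -0.18 (SE 0.18), with wild-type replicate 1 at 7.65 above the other arrays, which lay between 7.23 and 7.26.

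Genes of anaphase onset were divided, 2 lower and 2 higher. Cdc20, which activates the anaphase-promoting complex, had values of 11.74 and 11.94 in wild type and 11.93 and 11.84 in the mutant. These overlap, with a difference of 0.04 (SE 0.11) that was -0.059 with replicate 1 of wild type left out and 0.15 with replicate 2 left out instead. All 5 Cdc20 probe sets had a higher mean in the mutant, 1 of them only through mutant replicate 1, since its other 3 arrays held the same value of 3.79. Their mean differed by 0.14. In 1 of them, whose probe set name carries the suffix for probes shared between transcripts, the values were 11.11 and 11.19 in wild type and 11.60 and 11.37 in the mutant, which do not overlap, with a difference of 0.34 (SE 0.12; limma unadjusted p = 0.0587). Espl1, or separase, which cuts cohesin, differed by 0.29 (SE 0.20), with mutant replicate 2 at 11.28 and the other arrays between 10.67 and 10.86. Ube2c, the ubiquitin-conjugating enzyme of the complex, differed by -0.06, and Pttg1, or securin, by -0.015.

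Among the condensins, which fold mitotic chromosomes, Smc4 and Smc2 had larger SEs than any other gene of the list. Smc4 had values of 11.20 and 10.48 in wild type and 10.87 and 10.14 in the mutant, and differed by -0.33 (SE 0.41). Its partner Smc2 had values of 11.17 and 10.42 in wild type and 11.47 and 10.52 in the mutant, and differed by 0.20 (SE 0.48). In both genes the replicate 1 array of each genotype lay above its replicate 2 array, and the genotypes overlapped. The second Smc4 probe set differed by -0.07 (SE 0.45), and Ncapd2, a regulatory subunit, by 0.04 (SE 0.15).

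All 5 measured spindle assembly genes had a lower mean in the mutant, with a median of -0.12. Aspm, a spindle pole protein whose human counterpart is mutated in microcephaly, had values of 11.38 and 11.29 in wild type and 11.26 and 11.10 in the mutant. The genotypes of Aspm did not overlap, with a difference of -0.16 (SE 0.10; limma adjusted p = 1). It was -0.078 without mutant replicate 2 and -0.24 without mutant replicate 1. Nusap1, a microtubule-bundling protein, had values of 12.10 and 12.20 in wild type and 12.09 and 11.98 in the mutant, with no overlap and a mean lower by -0.12. Its second probe set also separated the genotypes, at -0.14. Dlgap5, or HURP, which stabilises kinetochore fibres, differed by -0.12, the hyaluronan receptor Hmmr by -0.11 and Prc1, which bundles the central spindle, by -0.05. A second Hmmr probe set differed by -0.16 with no overlap, whereas the values of the first overlapped. Of the cytokinesis genes, Racgap1 differed by 0.04 and Ect2 by -0.03, and the values of both overlapped. A second Racgap1 probe set differed by -0.07 with no overlap.

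**Figure D3:**
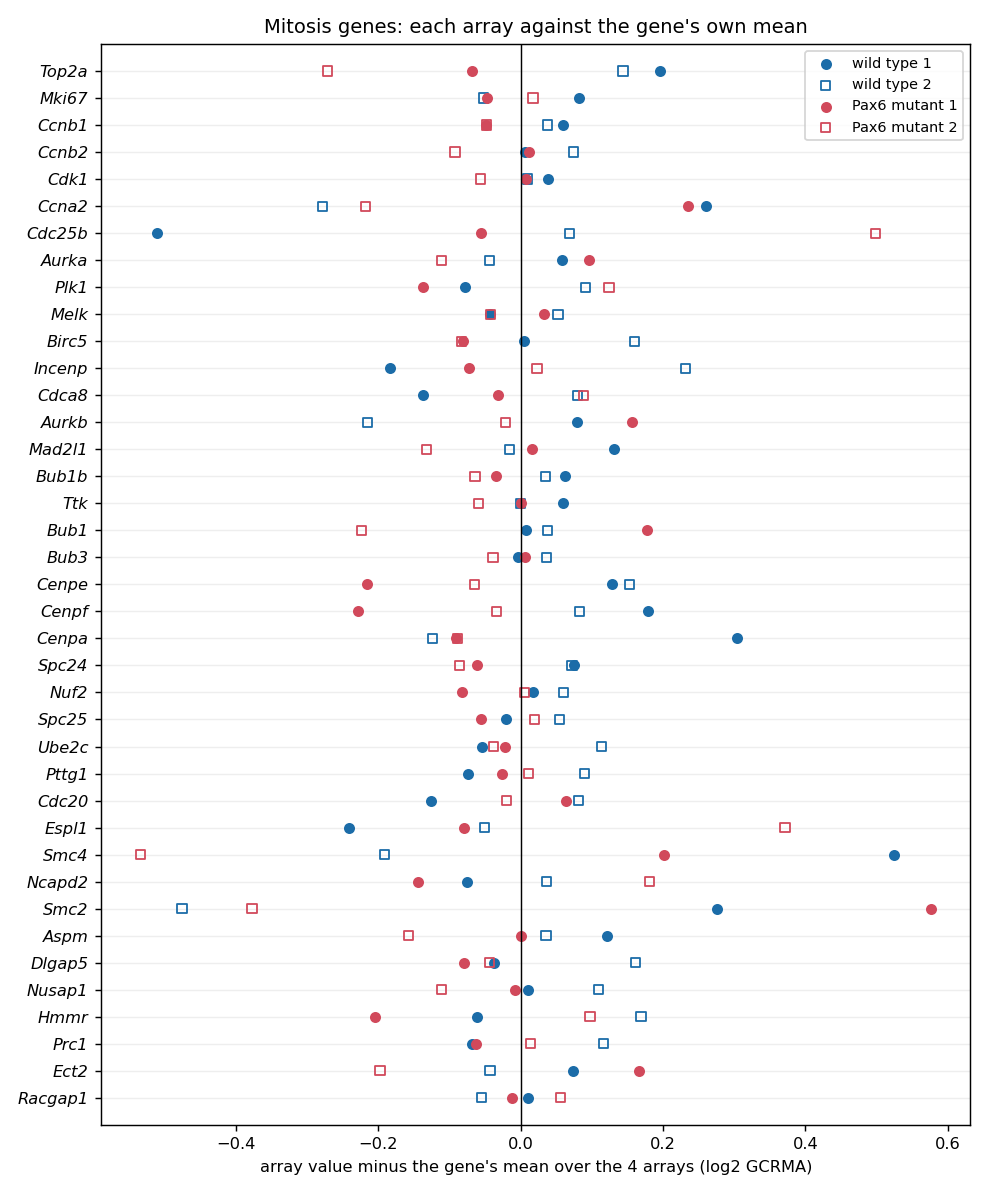
Value of each array minus the mean of the gene over the 4 arrays (log2 GCRMA), 1 row per gene, with wild type in blue, Pax6 mutant in red, filled circles for replicate 1 and open squares for replicate 2. Top2a, Cenpe, Cenpf and Spc24 have both red symbols left of both blue ones, whereas in Ccna2, Smc2 and Smc4 the circles lie right of the squares in both colours.

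Counted over probe sets rather than genes, 42 of the 55 had a lower and 13 a higher mean in the mutant. Both mutant arrays lay below both wild-type arrays in 18 probe sets and above in 1, that of Cdc20. Over all 18625 tested probe sets these shares were 11.8% and 11.4%. Of the 11 genes with several probe sets, 10 had all of them on the same side of 0, and Racgap1 did not.

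Comparing arrays that carry the same number sets mutant replicate 1 against wild-type replicate 1 and mutant replicate 2 against wild-type replicate 2, with no array shared. The median difference over the 39 genes was -0.030 in the first comparison and -0.086 in the second. In the first 23 genes were lower and 16 higher, and in the second 28 were lower and 11 higher. A gene was lower in both comparisons in 17 cases (43.6%) and higher in both in 5 (12.8%), and the remaining 17 had opposite signs. Over all genes tested 25.3% were lower in both and 26.2% higher in both. Top2a differed by -0.26 and -0.42, Cenpe by -0.34 and -0.22, Cenpf by -0.41 and -0.12 and Smc4 by -0.32 and -0.34. The 5 genes higher in both were Cdc25b (0.45 and 0.43), Espl1 (0.16 and 0.42), Smc2 (0.30 and 0.10), Aurkb (0.08 and 0.19) and Cdca8 (0.11 and 0.0089). Bub1 (0.17 and -0.26) and Cdc20 (0.19 and -0.10) turned sign between the comparisons.

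**Figure D4:**
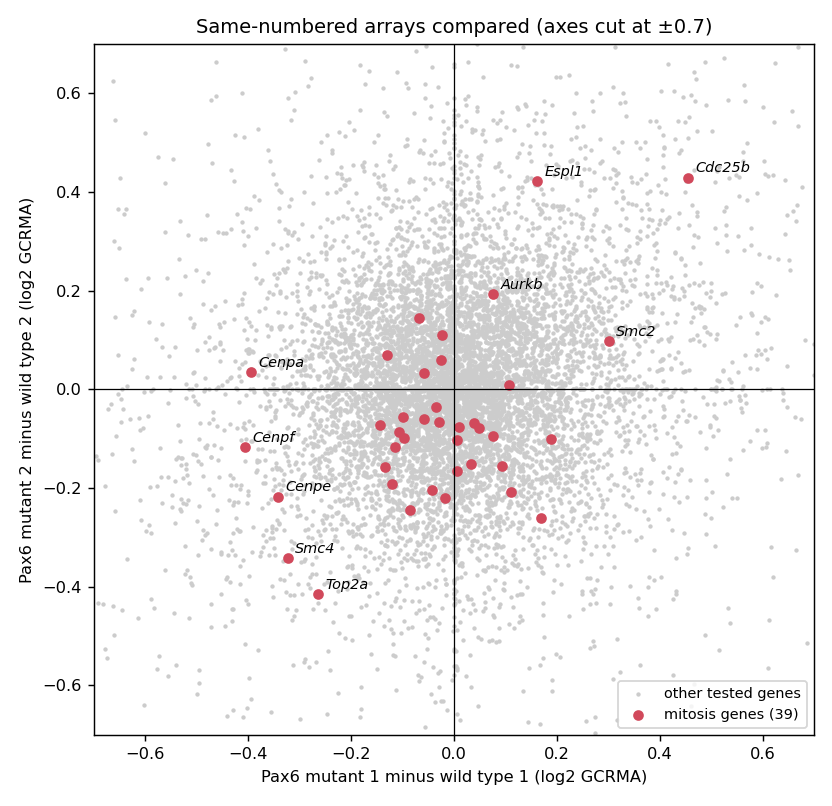
Difference of mutant replicate 1 from wild-type replicate 1 (horizontal, log2 GCRMA) against that of mutant replicate 2 from wild-type replicate 2 (vertical), with the 39 mitosis genes in red and other tested genes in grey, those beyond 0.7 not being shown. The lower left quadrant holds 17 of the 39 genes, with Top2a, Cenpe, Cenpf and Smc4 furthest out, and the upper right quadrant 5.

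In 23 of the 39 genes (59.0%) the mean difference between the replicate numbers was larger in size than that between genotypes, as in 63.2% of all genes tested. The replicate arrays lay at least 0.4 apart, the same way in both genotypes, in 4 genes, against 5.18% of all genes tested, a limit chosen after the values were seen. Smc2 was lower in replicate 2 by -0.75 in wild type and -0.95 in the mutant, Smc4 by -0.72 and -0.73, and Ccna2 by -0.54 and -0.45. Cdc25b was higher in replicate 2, by 0.58 and 0.55.

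Other genes of mitosis were listed from textbook knowledge as 105 symbols, which include older names of some of the same genes (Casc5, Sgol1 and Sgol2). Of these symbols 89 were tested, and 50 had a lower and 39 a higher mean. Their median was -0.017 and their differences ran from -0.26 to 0.29. In limma 0 of 89 had an adjusted p under 0.05, and 0 of 89 had an unadjusted p under 0.05. The genotypes did not overlap in 12 lower and 13 higher genes (13.5% and 14.6%). The single genes of this group given here were picked with their values known. The ends of the range were Cenpt (-0.26, SE 0.14), a centromere protein, and Numa1 (0.29), which anchors the spindle poles. Of the 12 mitotic kinesins 11 were tested, 6 lower and 5 higher, with Kif11, the motor that separates spindle poles, at 0.08. Of 24 other kinetochore genes 14 were lower, and the median was -0.026. Subunits and regulators of the anaphase-promoting complex were lower in 9 of 15 and cohesin genes in 7 of 12. Foxm1, a transcription factor that activates G2/M genes, had values of 9.30 and 9.34 in wild type and 9.39 and 9.52 in the mutant, which do not overlap, with a mean higher by 0.14 (SE 0.09). Knl1, a kinetochore scaffold, had values of 8.09 and 5.97 in wild type and 8.23 and 5.79 in the mutant, so its replicate numbers were far apart and its genotypes alike. The promoters of 89 of the other mitosis genes matched, and 50.6% of them held a CHR-type match.

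Genes of the neighbouring phases of the cell cycle were read from the same fit. Of 19 DNA replication and S phase genes 14 were lower, and their median was -0.031. Among them Rfc3, a clamp loader subunit, was the 1 gene with an unadjusted p under 0.05 (-0.22, SE 0.07; limma adjusted p = 1). G1 cyclins, kinases and inhibitors had 4 lower, 8 higher and 1 at 0 of 13 genes, with a median of 0.012. The Cdk inhibitor Cdkn1c lay highest among them at 0.61 (SE 0.14; limma unadjusted p = 0.0199, adjusted p = 1).

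Within the mitosis genes, the difference between genotypes was set beside the promoter letters, without a test. The 30 tested genes with a CHR-type match had a median of -0.068 and the 4 without one of -0.021. For CCAAT the medians were -0.054 in 28 genes with and -0.062 in 6 without a match. The groups without a match are small.

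Markers of cell types were compared between the same arrays, and no marker had an adjusted p under 0.05 in limma. Some lists nevertheless lay mostly to one side of 0. All 9 tested erythroid genes had a higher mean in the mutant, with a median of 0.61 and 7 of 9 without overlap. Their summed signal was 16.03 and 16.05 in wild type and 16.24 and 16.25 in the mutant on the log2 scale. All 9 tested endothelial genes were higher, with a median of 0.18 and summed signals of 11.75 and 11.74 against 11.89 and 12.09. Of 4 surface ectoderm genes 3 were lower, with a median of -0.64 and summed signals of 8.83 and 8.56 against 8.44 and 8.56. The values of Krt8, among the lower ones, overlapped. The remaining gene, Cdh1, was higher by 0.59 with no overlap. Neuroepithelial progenitor genes, which define the labelled tissue, were tested in 10 of 11 cases, 3 lower and 7 higher, with a median of 0.028. Their summed signals were 15.62 and 15.61 against 15.75 and 15.72. Postmitotic neuron genes had a median of 0.00 over 9 tested genes, with Nefl and Snap25 dim. That median is Ina, whose probe set held 4.32 in all 4 arrays. Of the others 4 were lower and 4 higher, from -0.41 (Nefm) to 0.51 (Dcx). The summed signals of the neuron genes were 11.62 and 11.78 against 11.82 and 11.68. Mesenchyme genes had a median of -0.07 over 7, with 3 lower and 1 higher without overlap. Their summed signals were 13.08 and 13.05 against 12.80 and 13.00. Of 6 macrophage genes 5 were dim, as were Epb42 (erythroid), Dcn (mesenchyme) and Krt5 (surface ectoderm). Whether these shifts play a part in the differences of the mitosis genes was not tested. Pax6 itself had values of 11.75 and 11.85 in wild type and 11.78 and 11.63 in the mutant. These overlap, and where the lesion lies relative to the probe set is not known here, so the Pax6 level does not check the genotype labels.

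**Figure D5:**
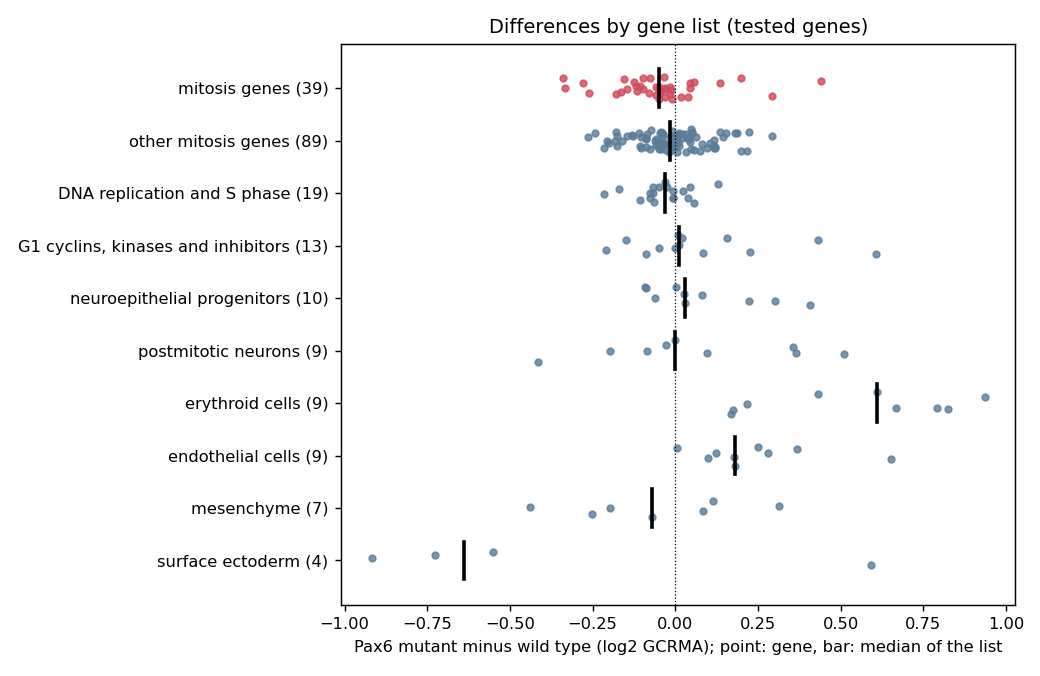
Difference between genotypes (Pax6 mutant minus wild type, log2 GCRMA) of each tested gene, by list, with the number of genes in parentheses and the median of the list as a black bar. The 39 mitosis genes (red) lie between -0.34 and 0.44 around a median of -0.049, whereas the erythroid genes all lie above 0 with a median of 0.61.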

How the data were processed

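RNA was extracted with TRIZOL and labelled with biotin from 10 µg of total RNA, per the labels' protocols, and measured on 4 one-colour Affymetrix rat arrays. The deposited table holds log2 values per probe set that the authors obtained from GCRMA (named, without a version, in the submitters' processing notes). Values between 2.07 and 16.13 show the log2 scale. GCRMA subtracts a background modelled on the bases of each probe, then brings arrays to a common distribution, which reduces shifts shared by most probes, and combines probes. The 57 control probe sets were left out. Of 31042 probe sets, those with a mean under the 40th percentile (3.21) were left out as dim, and 18625 were tested with limma 3.58.1 in R 4.3.3 (lmFit, eBayes, genotype as the single term), with Benjamini-Hochberg adjustment over all of them. Medians of the tested values per array were 8.24 and 8.33 in wild type and 8.22 and 8.35 in the mutant. The replicate 2 array was thus the higher one in both genotypes. Arrays give no depth, and their number limits the precision; an exact permutation test of 2 against 2 cannot give a two-sided p under 0.333. The fit was run on simulated data with the same independent noise for every probe set and no replicate shift. The arrays here have unequal spread, so that run does not show how well the fit finds differences in them.

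Symbols came from the platform annotation, and 0 symbols of the mitosis genes differed from RefSeq. The genes, lists and rules were chosen with earlier results of these data known. Values in every array are given for up to 6 decreases and 6 increases without overlap, genes with an unadjusted p under 0.05, and Mki67, Top2a, Ccnb1, Cdk1, Aurkb, Bub1, Cdc20 and Aspm (the rule also names Ndc80, which had no probe set); some further values were added after they were seen. Alternatives were other filters, scalings, a pseudocount of 16, other probe sets, a replicate block and leaving out each array. No gene list was tested as a set.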

Additional observations from a re-analysis of the deposited data

How the results depend on the processing

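Where 1 array of a genotype was left out, the lone array was assumed to vary like those of the other genotype. The count of mitosis genes past an adjusted p of 0.05 in limma was 0 under every alternative run: other filters, quantile normalization, median centring, the pseudocount of 16, the replicate block and leaving out each array. Over all probe sets 0 passed in the reported fit, 1 with the stricter filter, 2 after quantile normalization and 2 after median centring. At an unadjusted limma p under 0.05 the count of mitosis genes was 2 in the reported fit and 2 with the pseudocount. It was 4 without the filter, 4 under the replicate block and 1 with the stricter filter. After quantile normalization it was 0, as it was after median centring, so neither Top2a nor Cenpe counted there. The share of all genes at that level is given only for the reported fit and the block. The median difference of the mitosis genes, -0.0485, was -0.0382 after quantile normalization and -0.0598 with the mean of all probe sets of a gene. With 1 array left out it ran from -0.0890 (without mutant replicate 1, where the median of all genes was 0.0216) to -0.0515 (without mutant replicate 2, where that was -0.0227). The count lying wholly below wild type (12) was 7 after median centring, where 12.9% of all genes did so, and ran from 16 (without mutant replicate 2) to 22 (without wild-type replicate 1) with 1 array left out, where fewer arrays must separate and 37.4% and 32.8% of all genes did so. The count lying wholly above (0) was 1 after quantile normalization (15.0% of all genes), 1 after median centring (13.6%) and, with 1 array left out, 5 (without mutant replicate 2, 28.3% of all genes) to 9 (without wild-type replicate 2, 32.6%). The causes of these shifts with scaling were not tested. The counts of genes on the same side in both same-numbered comparisons stayed within 1.5 times under the alternatives run.

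With the replicate number as a block, 0 genes of the list and 0 probe sets passed (lowest limma adjusted p = 0.7357), and 4 genes of the list, Top2a, Cenpe, Cdc25b and Smc4, had an unadjusted p under 0.05 (3 lower and 1 higher), against 2 without it. Over all genes tested 2.47% were lower and 3.37% higher at that level under the block. Deviations of same-numbered arrays from their genotype means correlated at 0.43 across 18625 probe sets and at 0.79 across the 39 mitosis genes, which are not independent points. With 2 numbers per genotype this does not show that the arrays are paired. Which of the number of arrays and the signal limits these results more was not tested.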

Other observations

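In 3 of the 39 mitosis genes, Mad2l1, Ttk and Spc25, the difference was the same in both same-numbered comparisons within 0.001 on the log2 scale, which was so for 2.07% of all genes tested. In 249 tested probe sets the arrays of each genotype had identical values.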
